A study of Mus musculus with 15 samples.

Results

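IL-1β and TGFß1 were compared directly in Mouse Embryonic Fibroblasts (MEFs), as the 3 arrays of IL-1β-treated cells against the 3 arrays of TGFß1-treated cells, 6 of the 15 arrays of the series. The question was which transcripts separate the 2 cytokines, and, for each named gene, whether the IL-1β side or the TGFß1 side had moved from the 3 untreated control arrays. The cells were 3T3, an established clonal Balb/c line, so all values come from 1 clone in culture. IL-1β was given at 1 ng/ml and TGFß1 at 5 ng/ml. Cells were seeded for 24 or 72 h, and the time in IL-1β is not stated for this group. The effects of cytokine, dose and time therefore cannot be told apart, nor, in RNA of whole cultures, can fewer cells of a kind and less RNA per cell. An array is called by its group and the number that opens its label. IL-1β arrays are numbered 5, 10 and 15, TGFß1 arrays 2, 7 and 12 and control arrays 1, 6 and 11, and array values are given below in these orders. Slide 1 carried IL-1β 5, IL-1β 10, TGFß1 7, control 1 and control 11, and slide 2 carried IL-1β 15, TGFß1 2, TGFß1 12 and control 6, so the slide was kept as a block in the tests below unless another fit is named.

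IL-1β binds the receptor IL1R1 with its partner IL1RAP, and the adaptors and kinases behind it (MYD88, the IRAKs, TAK1) lead to NF-κB and AP-1, transcription factors known for chemokines, acute-phase proteins and matrix metalloproteinases. NF-κB also switches on its own inhibitors, which ends the response. TGFß1 binds the receptors TGFBR2 and TGFBR1, which phosphorylate SMAD2 and SMAD3. With SMAD4 these enter the nucleus, and in fibroblasts the pathway is known for collagen, integrin and contractile genes and for its own inhibitor SMAD7.

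Values are log2 processed signals minus the 75th percentile of the array, so 1 unit is a factor of 2, and levels of different probes are not comparable. Of the probes, 48.28% to 54.82% per array were well above background on the 9 arrays used here, and none was saturated. All 10 fibroblast markers (among them Col1a2, Thy1 and Vim) were above background on all 9 arrays. Of 11 macrophage and leukocyte markers, 5 were above background on all 9, namely Csf1r, Itgam, Cd14, Cd68 and Cd3e. On none of the 9 were 5 above it, among them Ptprc, Adgre1 and Lyz2. Itgam was the highest, at a mean of 3.69 with IL-1β, 3.96 with TGFß1 and 3.58 in controls. The summed linear level of the 11 markers was 12.4 to 25.4 with IL-1β and 13.1 to 22.2 with TGFß1, with the higher values on slide 2 in both groups. Of 8 endothelial markers 7 were above background on none, and of 8 epithelial markers 0 were above it on all 9 arrays and 3 on none. The summed epithelial level was 0.295, 0.228 and 0.323 with IL-1β and 0.701, 0.314 and 0.699 with TGFß1. Of the 3 epithelial genes tested, Krt8 was above background only with TGFß1, at least 3.6-fold lower with IL-1β. Krt19 was called higher (1.13) and Krt18 was not called. The Krt19 call was lost in 8 of 17 alternatives run, among them leaving out any IL-1β or TGFß1 array. With another background correction, normexp, the Krt19 difference was 0.09 (limma q = 0.574). The part of these markers in the results was not tested.

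IL-1β and TGFß1 arrays differed in 2951 of 13372 genes (22.1%) at a q-value under 0.05 and a fold-change of at least 1.5, which is what "called" means here. Higher with IL-1β were 1540 genes (11.5%) and lower 1411 (10.6%), and 99 of the former and 60 of the latter differed by more than 3 log2 units. Over all probes, 5773 of 28918 were called (20%). Against controls, IL-1β called 69 genes (0.516%), 65 higher (0.486%) and 4 lower (0.0299%), which was 108 probes (0.373%). TGFß1 called 3105 genes (23.2%), 1497 higher (11.2%) and 1608 lower (12%), which was 5913 probes (20.4%). Both comparisons with controls used the same 3 control arrays. The IL-1β calls depended on what was modelled: with the run of label numbers (1 to 5, 6 to 10, 11 to 15) as a further block they numbered 154 genes higher and 53 lower, so a gene not called for IL-1β is not shown to be unchanged. The split of the direct calls depended on the scaling. Of all called genes 52.2% were higher with IL-1β, against 34.8% when each array was centred on its median and 66.9% when the percentile was taken over bright probes. These scalings moved the median difference of all genes from -0.07 to -0.22 and 0.05.

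The largest differences in favour of IL-1β were at neutrophil-attracting chemokines and acute-phase genes. Cxcl5, a ligand of the neutrophil receptor CXCR2, read 6.88, 7.11 and 7.28 with IL-1β, -2.10, -2.11 and -2.18 with TGFß1 and 1.87, 2.27 and 1.76 in controls. The 3 groups did not overlap, and controls lay between both cytokines. For the largest differences described here, no overlap between IL-1β and TGFß1 arrays was a condition of choice and adds no evidence. Of the 2951 genes called between the cytokines, 2834 had no such overlap. Its log2 difference was 9.31 ± 0.17 (SE, n = 3 arrays per group, q = 6.29e-11 by limma), made of a rise of 5.12 ± 0.16 with IL-1β and a change of -4.18 ± 0.17 with TGFß1, both called. Cxcl1, a second ligand of that receptor, behaved alike in order, with 5.86, 6.08 and 6.13 against -0.82, -1.75 and -0.98, and controls at 1.96, 1.85 and 1.84. The difference was 7.29 ± 0.19 (limma q = 2.12e-09), and both sides had moved, IL-1β by 4.14 and TGFß1 by -3.15.

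Saa3, an acute-phase apolipoprotein, was at 3.82, 5.88 and 3.86 with IL-1β and at -4.16, -5.22 and -3.56 with TGFß1, with controls at -2.80, -2.87 and -3.05. All IL-1β arrays lay above all others, IL-1β 10 highest, and all TGFß1 arrays lay below the controls. The difference of 8.84 ± 0.67 (limma q = 5.2e-06) came from the IL-1β side, which rose by 7.43 ± 0.65, while the TGFß1 side, at -1.41 ± 0.67 (limma q = 0.117), was not called. Lcn2, an iron-trapping antibacterial lipocalin, read 2.88, 5.33 and 3.76 with IL-1β, -4.00, -4.39 and -4.01 with TGFß1 and -3.75, -1.01 and -2.84 in controls. Its groups did not overlap either, and the controls spread over more than 2 units. The difference was 8.24 ± 0.94 (limma q = 9.54e-05), with a called rise of 6.52 with IL-1β and -1.72 with TGFß1, not called (limma q = 0.173) unless the run was a further block (limma q = 0.0415). Slpi, an inhibitor of neutrophil elastase, showed 3.55, 3.89 and 3.28 against -0.73, -2.49 and -2.15, with controls from -1.49 to -0.17, and rose by 4.30 ± 0.50 with IL-1β. Its TGFß1 side, -1.10, was called only with the run as a block (limma q = 0.0397). A second Slpi probe differed between the cytokines by 0.71 (limma q = 0.00229), against 5.4 for the probe used here.

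C3, the central complement protein, was at 4.70, 6.95 and 5.66 with IL-1β, at -0.53, -1.11 and -0.14 with TGFß1 and at 0.92, 2.57 and 1.76 in controls. The order was again IL-1β, controls, TGFß1 with no overlap. The difference of 6.46 ± 0.69 (limma q = 6.27e-05) held a rise of 4.02 with IL-1β and a change of -2.44 with TGFß1, both called. Both of the C3 calls against controls rested on few arrays. The IL-1β call was lost without control 1, control 11, IL-1β 10 or IL-1β 15 (highest limma q = 0.135), and the TGFß1 call without control 6 or TGFß1 7 (highest limma q = 0.116). The Lcn2 rise was lost without control 1 or control 11 (highest limma q = 0.0549).

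Of the 24 genes with the largest differences, 18 had a promoter entry in RefSeq (build GRCm38.p6, 250 bases before to 50 bases after a gene's start). Of the 18, 13 held at least 1 of 5 motifs in at least 1 entry. How many of all genes did so was not counted, so the 13 are not a result about these genes. The motifs, searched on both strands, were GGANTTTCC for NF-κB, TTGCNNAAT for C/EBP, TGANTCA for AP-1, and CAGACA and GTCTAGAC for SMADs. Their letters can overlap each other. C/EBPβ and C/EBPδ are known as partners of NF-κB at acute-phase genes. The 4 promoters below belong to genes that rose with IL-1β and held the NF-κB or the C/EBP letters, and capitals mark them. Cxcl1 lies at chr5:90890995-90891294 (plus strand, motif from base -70), Saa3 at chr7:46715627-46715926 (minus strand, from -100), C3 at chr17:57228087-57228386 (minus strand, from -45) and Slpi at chr2:164356458-164356757 (minus strand, from -242), with the C/EBP letters of Saa3 and Slpi read on the opposite strand. Lcn2, which also rose with IL-1β, held only CAGACA, from base 41 after its start, and Cxcl5 had no entry. The letters were not limited to such genes. Ptx3, not called for IL-1β against controls, held C/EBP from base -58, and Tfpi2, higher with TGFß1, held NF-κB from -134 and AP-1 from -77 in 1 of its entries.
Cxcl1: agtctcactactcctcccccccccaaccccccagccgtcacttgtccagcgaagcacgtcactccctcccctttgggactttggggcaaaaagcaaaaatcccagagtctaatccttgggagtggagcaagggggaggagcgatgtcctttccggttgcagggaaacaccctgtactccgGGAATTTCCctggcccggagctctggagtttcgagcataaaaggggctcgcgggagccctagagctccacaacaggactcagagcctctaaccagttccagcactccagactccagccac
Saa3: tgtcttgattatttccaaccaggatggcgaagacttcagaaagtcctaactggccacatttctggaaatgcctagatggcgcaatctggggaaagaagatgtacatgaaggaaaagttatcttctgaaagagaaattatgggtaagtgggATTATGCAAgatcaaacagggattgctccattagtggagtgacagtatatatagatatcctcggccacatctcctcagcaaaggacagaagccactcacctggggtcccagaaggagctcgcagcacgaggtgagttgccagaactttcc
C3: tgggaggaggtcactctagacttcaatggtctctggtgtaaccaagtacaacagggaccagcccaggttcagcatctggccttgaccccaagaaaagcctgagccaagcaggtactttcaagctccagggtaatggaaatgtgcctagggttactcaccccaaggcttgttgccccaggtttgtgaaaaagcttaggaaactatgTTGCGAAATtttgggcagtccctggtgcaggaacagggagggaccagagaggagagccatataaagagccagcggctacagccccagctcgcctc
Slpi: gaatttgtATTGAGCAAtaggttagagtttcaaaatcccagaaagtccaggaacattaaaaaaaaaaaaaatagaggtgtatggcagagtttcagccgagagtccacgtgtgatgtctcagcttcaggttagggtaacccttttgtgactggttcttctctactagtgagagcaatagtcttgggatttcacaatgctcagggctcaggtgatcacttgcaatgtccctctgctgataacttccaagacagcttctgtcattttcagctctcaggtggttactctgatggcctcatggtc

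Across genes, the NF-κB letters stood in 9.8% of the promoters of genes called higher with IL-1β than controls (5 of 51), in 2.38% of those higher with IL-1β than TGFß1 (38 of 1597), in 1.09% of those lower (15 of 1374) in 1.41% of those of all genes tested and in 1.25% of all 32851 promoters. For C/EBP these shares were 11.8% (6 of 51), 2.82% (45), 1.38% (19), 1.87% and 2.4%, and for AP-1 17.6% (9 of 51), 7.83%, 6.91%, 5.67% and 7.81%. CAGACA stood in 21.6%, 18.3%, 18%, 16.5% and 21%, and GTCTAGAC in 1.96%, 0.125%, 0.146%, 0.252% and 0.213%. Each promoter entry was counted, and entries of 1 gene can overlap and share a match. The 51 entries belong to 43 genes, the 1597 to 1215 and the 1374 to 1077. These are matches of letters, not sites shown to be bound.

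The other 6 of the 12 largest positive differences were called against controls for TGFß1 and not for IL-1β. Ptx3, a long pentraxin of innate immunity, read 1.06, 2.16 and 2.00 with IL-1β, -4.68, -4.31 and -3.65 with TGFß1 and 0.71, 1.31 and 1.58 in controls. IL-1β arrays overlapped the controls, and all TGFß1 arrays lay more than 4 units below both. Its difference was 6.00 ± 0.39 (limma q = 2.12e-06), with TGFß1 at -5.46 ± 0.39 from controls, called, and IL-1β at 0.54 ± 0.38 with IL-1β, not called. Abcc3, an exporter of organic anions, was not well above background on any TGFß1 array and was at least 38.6-fold higher with IL-1β, with -0.15, 1.08 and 0.69 against controls at -0.82, 0.12 and -0.29. Its IL-1β value against controls, 0.87, was called only with the run as a further block. Cyp2f2, a cytochrome P450, was likewise at least 19.8-fold higher, from IL-1β arrays spread from -2.05 to 1.40.

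Enpp2, the enzyme autotaxin that makes lysophosphatidic acid, differed by 5.43 ± 0.84, with 1.22, 3.36 and 1.80 against -3.50, -2.89 and -3.45, and fell with TGFß1 (-3.48, limma q = 0.00825). Its IL-1β value was 1.95 with a 95% interval of 0.15 to 3.75 and was not called (limma q = 0.695). Scara5, a ferritin receptor, and Gda, the guanine deaminase, differed by 5.37 ± 0.47 and 5.13 ± 0.36, with TGFß1 at -5.97 and -4.88 from controls and IL-1β at -0.59 and 0.25. The falls of Enpp2 and Cyp2f2 with TGFß1 were lost without control 6 (limma q = 0.07 and 0.0551), the control array on slide 2. Of the TGFß1 arrays, 2 of 3 were above background for Saa3 and Ptx3 and 1 of 3 for Scara5 and Gda. A bound is the mean of the detected group against, per array, the dimmest level that counted as well above background or the probe's own value, if higher.

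In all 12 of the largest differences in favour of TGFß1, TGFß1 was called higher than controls and IL-1β was not called. Bmpr1b, Tcim, Ret, Htr2b, Tfpi2, Dmp1 and 1600027J07Rik were tested only because the TGFß1 arrays were above background. Their IL-1β side compares background with background and does not show that IL-1β left them unchanged. Jag1, a Notch ligand, read -3.12, -3.68 and -2.93 with IL-1β, 2.85, 2.41 and 2.98 with TGFß1 and -3.13, -3.90 and -2.30 in controls. IL-1β arrays lay within the range of the controls, and TGFß1 arrays stood more than 4 units above. The difference was -6.01 ± 0.40 (limma q = 2.24e-06), with 5.88 ± 0.40 for TGFß1 and -0.13 ± 0.39 for IL-1β against controls. Bmpr1b, a type I receptor of the BMP family, was read at 0.69, 0.87 and 0.13 with TGFß1 and was not well above background on any IL-1β or control array. It was at least 44.7-fold lower with IL-1β (measured difference -6.55, limma q = 5.69e-06) and at least 41.7-fold higher with TGFß1 than in controls.

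Tcim and Ret were also read only with TGFß1 (limma q = 1.35e-05 and 5.35e-08), so their differences have a bound and no size. Ret, a receptor tyrosine kinase for GDNF-family ligands, was at -0.31, -0.01 and -0.44 with TGFß1 and at most -6.28 on the other 6 arrays, all of them at background, which gave a bound of 25.4-fold. Tcim, a regulator of Wnt signalling, had a bound of 31.0-fold. Htr2b, the serotonin receptor 2B, was bounded at 19.1-fold, Tfpi2, a Kunitz-type protease inhibitor, at 9.41-fold, Dmp1, a matrix phosphoprotein of bone, at 8.83-fold, and the uncharacterized 1600027J07Rik at 9.67-fold. In these 6 genes no IL-1β and no control array was well above background. Such differences depended on the background correction. With normexp, which adds an offset of 50 to every signal, the log2 difference was -2.92 for Tcim, -2.85 for Ret, -3.35 for Bmpr1b, -2.41 for Htr2b, -1.52 for Tfpi2, -1.73 for Dmp1 and -1.72 for 1600027J07Rik, all still called. On the other side it was 3.16 for Abcc3 and 2.45 for Cyp2f2, also called. Of the 124 named genes, 46 had differences smaller by over 1.5-fold with it, and the bounds given here hold for the processed signal alone.

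Tll1 and Pcolce2 act on procollagen, Tll1 as a BMP1-like protease and Pcolce2 as an enhancer of its cleavage. Tll1 was at 1.40, 1.18 and 0.94 with TGFß1, at -3.24, -5.80 and -3.54 with IL-1β and at -3.98, -7.23 and -4.11 in controls, a difference of -5.53 ± 0.99 (limma q = 0.0017). Its lowest IL-1β array was number 10 and its lowest control number 6, both of the same run of labels. Pcolce2 differed by -5.26 ± 0.78, Lrrc15, a surface protein of matrix-producing fibroblasts, by -4.86 ± 0.43, and Whrn, a scaffold protein of stereocilia, by -4.82 ± 0.25. Whrn was the most even of these, with TGFß1 at 5.25, 4.97 and 4.82 and all other arrays between -0.23 and 0.58.

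**Figure D1:**
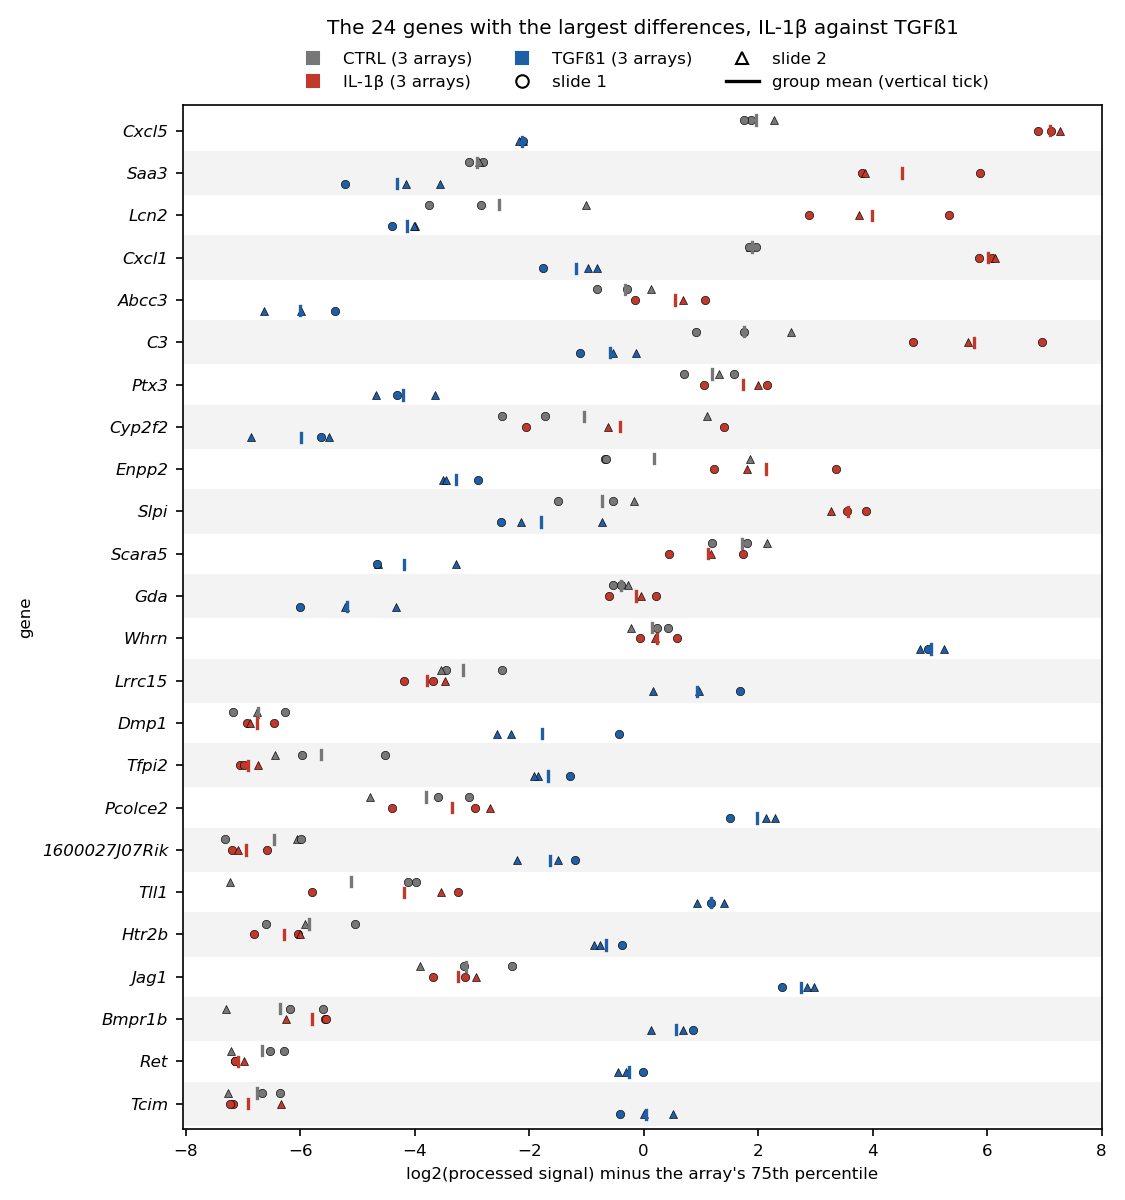
Level of the 24 genes with the largest differences on each of the 9 arrays (x axis, log2 processed signal minus the array's 75th percentile), with IL-1β in red, TGFß1 in blue and controls in grey, slide 1 as circles and slide 2 as triangles, and group means as vertical ticks. Cxcl5 and Cxcl1 show IL-1β right and TGFß1 left of the controls, whereas in the 12 lower genes IL-1β and controls lie together, with Whrn at -0.23 to 0.58 on those 6 arrays and 4.82 to 5.25 with TGFß1. For Bmpr1b, Tcim, Ret, Htr2b, Tfpi2, Dmp1 and 1600027J07Rik those 6 arrays were at background.

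The 3 promoters below are from this TGFß1 side, the AP-1 letters in Lrrc15 and Htr2b and the SMAD letters in Bmpr1b and Htr2b being in capitals. Lrrc15 at chr16:30283205-30283504 (minus strand) held AP-1 from base -53, Htr2b at chr1:86111931-86112230 (minus strand) AP-1 from -163 and CAGACA from -47, and Bmpr1b at chr3:141982215-141982514 (minus strand, 1 of 3 entries of the gene) CAGACA from -128. Tll1, Dmp1, Tfpi2 and 1600027J07Rik also held CAGACA. Jag1, Pcolce2 and Whrn held none of the 5 motifs in this window, and Ret and Tcim had no entry.
Lrrc15: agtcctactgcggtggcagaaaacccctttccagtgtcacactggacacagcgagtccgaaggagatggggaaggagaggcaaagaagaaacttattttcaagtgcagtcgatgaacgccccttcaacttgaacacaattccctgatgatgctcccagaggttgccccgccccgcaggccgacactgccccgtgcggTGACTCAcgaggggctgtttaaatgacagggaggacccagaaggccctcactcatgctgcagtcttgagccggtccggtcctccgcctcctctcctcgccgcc
Htr2b: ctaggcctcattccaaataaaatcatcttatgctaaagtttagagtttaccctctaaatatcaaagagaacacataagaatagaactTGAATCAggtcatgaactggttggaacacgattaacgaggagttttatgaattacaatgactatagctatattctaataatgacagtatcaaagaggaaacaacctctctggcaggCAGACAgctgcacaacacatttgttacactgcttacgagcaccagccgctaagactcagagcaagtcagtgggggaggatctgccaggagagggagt
Bmpr1b: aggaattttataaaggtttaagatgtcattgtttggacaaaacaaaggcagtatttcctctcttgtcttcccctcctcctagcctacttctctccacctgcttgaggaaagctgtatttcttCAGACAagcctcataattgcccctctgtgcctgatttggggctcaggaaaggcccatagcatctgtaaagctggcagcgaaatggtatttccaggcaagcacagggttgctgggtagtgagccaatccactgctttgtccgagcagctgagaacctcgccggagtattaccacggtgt

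**Figure D2:**
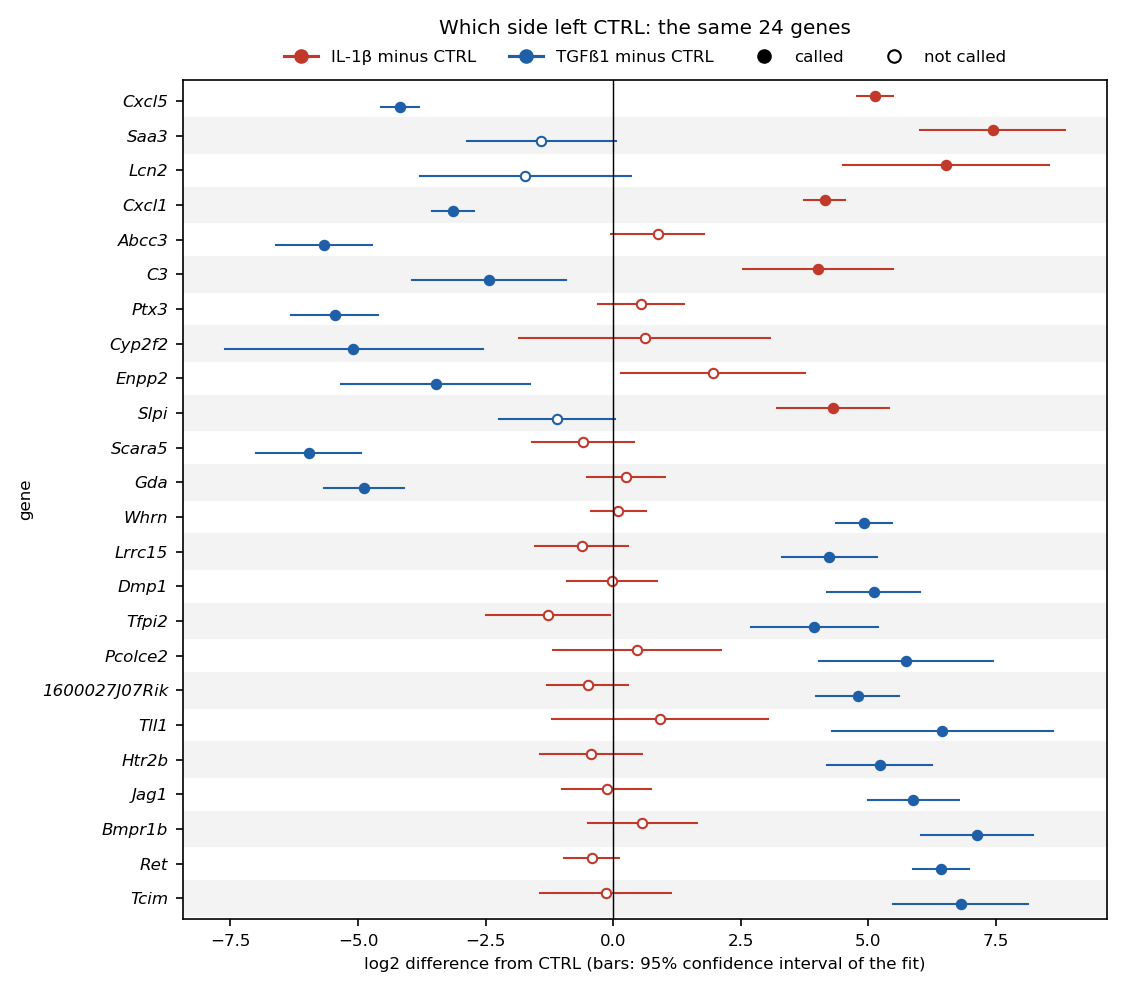
Fitted log2 difference from controls with IL-1β (red) and with TGFß1 (blue) for the same 24 genes, with 95% confidence intervals and filled points where the difference was called. Cxcl5, Cxcl1 and C3 moved in opposite directions, Saa3, Lcn2 and Slpi were called only for IL-1β, and the remaining 18 only for TGFß1. For Bmpr1b, Tcim, Ret, Htr2b, Tfpi2, Dmp1 and 1600027J07Rik the IL-1β points compare background with background.

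The NF-κB subunits and feedback genes were higher with IL-1β. Of 17 tested, 12 were called higher and 0 lower (11.5% and 10.6% of all genes), with a median difference of 1.22 against -0.07 for all genes. Against controls, IL-1β had 10 of 17 higher (0.486% of all genes), and TGFß1 had 1 higher and 7 lower (11.2% and 12%). Tnfaip3, the deubiquitinase A20 that ends NF-κB signalling, read 1.16, 0.98 and 1.29 with IL-1β, -0.69, -1.05 and -0.91 with TGFß1 and -0.21, -0.23 and -0.13 in controls. Its 3 groups were separate and narrow, and both sides moved, by 1.34 ± 0.10 and -0.73 ± 0.11, for a difference of 2.06 ± 0.11 (limma q = 4.47e-07).

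Bcl3 (2.83 ± 0.21), Cebpd (2.26 ± 0.21) and Nfkbie (2.00 ± 0.11), a nuclear IκB protein, a C/EBP factor and an inhibitory IκB, also rose with IL-1β and fell with TGFß1. Nfkbia, the inhibitor IκBα, showed the same with 1.11 and -0.61 against controls. Zc3h12a, a ribonuclease that degrades cytokine mRNAs, was called higher in both groups than in controls, at 2.88 with IL-1β and 1.79 with TGFß1. The subunits themselves differed less. Relb (1.73) was called, while Nfkb1 (0.56), Nfkb2 (0.58) and Rel (0.52) had q-values under 0.05 but differed by less than 1.5-fold, and Rela was at 0.16. The Bcl3 rise with IL-1β was lost on leaving out any of 4 of the 6 arrays and that of Cebpd on leaving out any of 3 (highest limma q = 0.123 and 0.0784).

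Chemokine genes followed. Of 15 tested, 10 were called higher and 1 lower with IL-1β than TGFß1 (11.5% and 10.6% of all genes), with a median of 1.96. These shares over all genes apply to each list below. Against controls, 0.516% of all genes were called for IL-1β and 23.2% for TGFß1. Ccl2, the monocyte attractant, was at 8.72, 9.02 and 8.85, at 4.34, 5.38 and 4.95 with TGFß1 and at 6.62, 7.00 and 7.01 in controls. It had no overlap between groups and differed by 3.93 ± 0.24 (limma q = 1.59e-06), with 1.98 for IL-1β and -1.94 for TGFß1, both called. Ccl5, a T-cell attractant, differed by 4.04 ± 0.31, again with both sides called (2.83 and -1.21), the TGFß1 call being lost without TGFß1 7 (limma q = 0.0858). Ccl11, which attracts eosinophils, was not well above background with TGFß1 and was at least 2.72-fold higher with IL-1β. Ccl9 (1.96) was called against controls only for TGFß1, at -2.04. Ccl7 (1.43) was called only for IL-1β, at 1.19. Cxcl12, which holds leukocytes and stem cells in tissue, was the exception at -1.63, with TGFß1 at 2.22 above controls and IL-1β at 0.60, not called.

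Cytokines and colony-stimulating factors were called against controls for TGFß1 and not for IL-1β. Of 14 tested, 8 were higher and 2 lower with IL-1β than TGFß1 (11.5% and 10.6% of all genes). Against controls 0 were called for IL-1β (0.516% of all genes), and TGFß1 had 2 higher and 8 lower (11.2% and 12%). At that IL-1β share, 0 calls in a list of this size do not set the list apart. Il6 read -1.34, -0.67 and -0.48 with IL-1β, -3.73, -2.69 and -3.50 with TGFß1 and -2.66, -2.20 and -2.13 in controls. IL-1β arrays lay above and TGFß1 arrays below every control. Il6 differed by 2.46 ± 0.35 (limma q = 0.000391), with IL-1β at 1.5 (95% interval 0.76 to 2.24, limma q = 0.122, not called) and TGFß1 at -0.96 (limma q = 0.0477), a call that was lost on leaving out any of 4 of 6 arrays. With the run as a further block, Il6 was called for IL-1β. Il13ra2, a decoy receptor of IL-13, differed by 4.77 ± 0.36 and Il7, a lymphocyte growth factor, by 2.70, each with a called fall with TGFß1 and with 1 of 3 TGFß1 arrays above background. Tslp, an epithelial and stromal cytokine, was above it on no TGFß1 array and at least 2.95-fold higher with IL-1β, but its difference was 0.56 and not called with normexp. Against controls Il13ra2 (1.71) and Tslp were called higher for IL-1β only with the run as a block (limma q = 0.0467 and 0.0197). Il11, a cytokine of the IL-6 family, was lower with IL-1β (-2.51 ± 0.65), having risen by 2.70 with TGFß1, a call lost without control 6. Tnf was at 0.15 (95% interval -0.25 to 0.55, limma q = 0.545) and was not called in any of these comparisons.

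The receptors of IL-1 itself were lower with TGFß1. Il1r1, the signalling receptor, was at 2.93, 3.13 and 2.89 with IL-1β, 1.22, 1.57 and 1.77 with TGFß1 and 2.75, 2.75 and 2.67 in controls. IL-1β and control arrays were close together and all TGFß1 arrays were lower, a difference of 1.44 ± 0.16 (limma q = 9.2e-05). Il1rap (1.29) and Irak3, an inhibitory kinase-like protein (2.36), were also higher with IL-1β than TGFß1. The decoy receptor Il1r2 and the kinase gene Map3k8 were not well above background with TGFß1, and were at least 3.37-fold and 4.01-fold higher with IL-1β. Il1r1, Il1rap, Irak3 and Map3k8 were called lower with TGFß1 than controls, and none of these 4 was called for IL-1β. Il1r2 was above background on 1 of 3 control arrays, so neither of its sides has a size. Both Il1r2 and Map3k8 were called higher for IL-1β with the run as a block. Of 13 tested members 5 were called higher and 1 lower (11.5% and 10.6% of all genes), the lower one being Map3k7, the kinase TAK1, at -0.67. The TGFß1 call of Map3k8 was lost on leaving out either of 2 arrays.

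Acute-phase, antimicrobial and complement genes gave the highest median of all lists, 3.73. Of 15 tested, 12 were called higher and 0 lower (11.5% and 10.6% of all genes). Against controls IL-1β had 7 higher, and TGFß1 had 1 higher and 6 lower. Cfb (3.89), the complement factor B, and Saa1 (2.58) rose with IL-1β and were not called for TGFß1. The C1 proteases C1s1 (3.73) and C1ra (2.98) and the complement inhibitor Cd55 (2.55) instead fell with TGFß1 and were not called for IL-1β. Hp, haptoglobin, was called higher than controls in both groups, at 3.64 and 2.20, and its direct difference of 1.43 was not called (limma q = 0.0662).

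Leukocyte adhesion genes split. Of 9 tested, 4 were higher with IL-1β and 3 lower (11.5% and 10.6% of all genes). Icam1, the ligand of leukocyte integrins, read -1.44, -1.35 and -0.79 with IL-1β against controls at -3.55, -3.10 and -2.67 and was not well above background with TGFß1. It was at least 11.6-fold higher than with TGFß1 (measured difference 3.91, limma q = 2.23e-06), and both sides had moved from controls. Vcam1 (1.61 ± 0.28) came from a fall with TGFß1, lost without control 6, and Alcam (-2.28 ± 0.40) and Jam2 (-1.49 ± 0.27) from rises with TGFß1. In the prostaglandin, nitric oxide and superoxide list 2 of 9 were called (22.2%, against 22.1% of all genes). Ptger4 (1.5), a receptor of prostaglandin E2, was called through a fall with TGFß1, and Ptgis (1.30) had no side called. The direct Ptgis call was lost with normexp (0.24, limma q = 0.0695) and in the fit of the 6 arrays compared. Ptgs2, cyclooxygenase-2, was at -0.96 (limma q = 0.119), having risen by 2.15 with TGFß1.

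Matrix-degrading proteases also moved both ways, 6 of 15 higher with IL-1β and 4 lower (11.5% and 10.6% of all genes). Mmp3, stromelysin-1, was at 6.03, 6.71 and 6.27 with IL-1β, 1.76, 2.41 and 1.89 with TGFß1 and 4.52, 5.36 and 4.60 in controls. The groups did not overlap. Mmp3 differed by 4.29 ± 0.34 (limma q = 6.87e-06), of which the TGFß1 side (-2.78) was called and the IL-1β side (1.51, 95% interval 0.79 to 2.23, limma q = 0.104) was not, except with the run as a block. Mmp13, a collagenase, was the reverse, with 0.45, -0.24 and 0.26 against -1.89, -1.77 and -1.98 and controls at -2.42, -2.56 and -2.34. It rose by 2.60 ± 0.22 with IL-1β and was not called for TGFß1 (0.57), and differed by 2.03 ± 0.23. Adamts5, an aggrecanase, differed by 2.43 ± 0.41 with both cytokines below controls, TGFß1 at -3.58 (called) and IL-1β at -1.14 (called lower only with the run as a block). Plat, tissue plasminogen activator (-2.83 ± 0.19), Adamts4 (-1.71), Adamts12 (-1.23) and the membrane-bound Mmp14 (-0.88) were lower with IL-1β, each having risen with TGFß1.

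Of 11 protease inhibitors, 5 were higher and 3 lower with IL-1β (11.5% and 10.6% of all genes). Against controls 0 were called for IL-1β (0.516% of all genes). Timp3, a matrix-bound metalloproteinase inhibitor, read 0.64, 1.09 and 0.61 with IL-1β, -2.40, -1.68 and -2.75 with TGFß1 and 1.19, 0.92 and 1.14 in controls, so only the TGFß1 arrays stood apart. It fell by 3.25 with TGFß1, for a difference of 2.95 ± 0.27 (limma q = 2.06e-05). Timp2 (0.65), Reck (1.09) and Serpine2 (1.53) followed it, the TGFß1 call of Serpine2 being lost without control 6. Timp1 (-0.83 ± 0.25) had instead risen with TGFß1. It lost its direct call in 7 of the alternatives run, among them the fit without the slide and quantile normalization.

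Of 9 fibrillar collagens tested, 3 were called lower with IL-1β (10.6% of all genes) and 0 higher (11.5%), with a median of -0.47. Col5a3, a minor chain of type V collagen, was at 1.56, 2.19 and 1.54 with IL-1β, 4.72, 4.73 and 4.85 with TGFß1 and 0.96, 2.22 and 1.19 in controls, a difference of -2.96 ± 0.30 (limma q = 4.32e-05) with only the TGFß1 arrays apart. Col1a1, the main chain of type I collagen, read 6.46, 7.07 and 7.09 against 7.54, 7.84 and 7.76, with controls at 6.71, 7.36 and 7.26. It differed by -0.79 ± 0.20 (limma q = 0.0108) and neither side was called against controls (TGFß1 0.56, IL-1β -0.23). The call was lost under quantile normalization or without TGFß1 7. Of 2 other Col1a1 probes 1 was called lower (-0.96, limma q = 0.00672) and 1 was not (-0.39, limma q = 0.0595). Col1a2 (-0.34) and Col3a1 (0.69) were not called. Of 12 other collagens Col7a1 of anchoring fibrils (-2.53 ± 0.13), Col6a3 (-1.23) and Col18a1 (-1.16) were lower with IL-1β and the type IV chain Col4a5 (1.6) higher, and each of these was called against controls for TGFß1 and not for IL-1β. That TGFß1 call was lost for Col6a3 on leaving out any of 4 of 6 arrays (highest limma q = 0.121) and for Col4a5 without control 6.

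Collagen processing and cross-linking genes had 6 of 19 lower with IL-1β and 1 higher (10.6% and 11.5% of all genes), and TGFß1 had 6 higher than controls and 0 lower. Besides Tll1 and Pcolce2 these were Plod2 (-0.81), which hydroxylates telopeptide lysines, Loxl3 (-0.84), P4ha3 (-0.83) and Bmp1 (-0.80), the procollagen C-proteinase. The TGFß1 rise was lost for Loxl3 on leaving out any of 3 arrays and for P4ha3 on leaving out either of 2. Lox itself, the lysyl oxidase, was higher with IL-1β at 0.74, with IL-1β at 0.21 and TGFß1 at -0.53 from controls, neither called. In this list 0 genes were called for IL-1β against controls, as in the fibrillar and the other collagens, against 0.516% of all genes. At that share, 0 calls in lists of this size do not set them apart.

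Fibronectin, matricellular and elastic fibre genes had 10 of 21 lower and 5 higher with IL-1β (10.6% and 11.5% of all genes). Ccn2, connective tissue growth factor, read 2.06, 1.41 and 1.87 with IL-1β, 5.17, 5.47 and 5.24 with TGFß1 and 2.52, 1.33 and 2.79 in controls, a difference of -3.62 ± 0.39 (limma q = 7.02e-05). Its family member Ccn3 went the other way, at least 4.47-fold higher with IL-1β, since it was not above background with TGFß1. Tnc (-2.48 ± 0.22), tenascin-C, stood highest with TGFß1 at 3.36 above controls and was at 0.88 with IL-1β, not called (limma q = 0.192). Fn1, fibronectin, differed by -0.94 ± 0.21, and its TGFß1 call (0.87) was lost without TGFß1 7. Cilp, a cartilage matrix protein, was uneven, at 0.71 on TGFß1 7 and at -3.83 and -4.15 on TGFß1 2 and 12, and was at least 5.63-fold lower with IL-1β, all IL-1β and control arrays being at background.

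Among 14 proteoglycan and hyaluronan genes 5 were higher with IL-1β and 2 lower (11.5% and 10.6% of all genes). Dcn, decorin, which binds collagen fibrils and TGFß, was at 7.31, 8.00 and 7.39 with IL-1β, 4.08, 4.30 and 3.28 with TGFß1 and 5.44, 6.45 and 5.17 in controls. The groups did not overlap, and the difference was 3.66 ± 0.43 (limma q = 0.000124). The TGFß1 side was called at -1.79, except without control 6, and the IL-1β side at 1.88 (95% interval 0.95 to 2.81, limma q = 0.124) only with the run as a block. Lum (2.64 ± 0.76) lost its direct call in 4 of the alternatives run and had neither side called, except with the run as a block, where both were (IL-1β 1.77 and TGFß1 -0.96, limma q = 0.00652 and 0.00839), and Prelp (2.81 ± 0.62) fell with TGFß1. Has2, a hyaluronan synthase, was lower with IL-1β (-2.45 ± 0.33) after a rise with TGFß1.

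Of 14 genes of TGFß ligands, latency and receptors, 3 were higher and 3 lower with IL-1β (11.5% and 10.6% of all genes). Against controls TGFß1 had 5 higher and 3 lower, and IL-1β had 1 higher. All 3 ligand genes were lower with IL-1β. Tgfb1 read 0.70, 0.26 and 0.18 with IL-1β, 1.52, 1.45 and 1.54 with TGFß1 and 0.23, -0.79 and 0.28 in controls, so TGFß1 arrays lay above all others. Tgfb1 differed by -1.28 ± 0.22 (limma q = 0.00157), Tgfb2 by -1.84 ± 0.16 and Tgfb3 by -2.52 ± 0.14, each with a rise with TGFß1. The receptor Tgfbr2 (0.79) and the co-receptor Tgfbr3 (1.73 ± 0.11) had fallen with TGFß1, while Tgfbr1 was at 0.01. Lrrc32, known as GARP, which tethers latent TGFß to the cell surface, rose with both cytokines. Its values were 3.18, 3.20 and 3.41 with IL-1β, 1.48, 2.18 and 1.99 with TGFß1 and 1.16, 0.59 and 0.97 in controls, with no overlap, and it rose by 2.36 ± 0.17 with IL-1β and by 1.02 ± 0.18 with TGFß1.

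Of 19 SMAD and feedback genes, 6 were higher and 5 lower with IL-1β (11.5% and 10.6% of all genes, as for every list of this paragraph). Against controls 0 were called for IL-1β (0.516% of all genes). The inhibitors of TGFß signalling Pmepa1 (-2.54 ± 0.21), Smad7 (-1.52), Skil (-1.36) and Tgif1 (-1.04) and the ubiquitin ligase gene Smurf2 (-0.86) had risen with TGFß1. The 6 higher ones were all 4 Id genes, known targets of BMP signalling, with Smad6 and Smad9. Smad9 was not called with normexp (0.58). Id4 read 0.25, 0.29 and 0.16 with IL-1β, -2.88, -3.39 and -2.99 with TGFß1 and 0.68, 0.48 and 0.41 in controls, a difference of 3.34 ± 0.13 (limma q = 6.01e-08), with the fall on the TGFß1 side. The signal carriers Smad2 (-0.10), Smad3 (0.16) and Smad4 (-0.33) were not called. Of 12 BMP and activin genes, 5 were lower and 3 higher, among them Inhba, the activin A subunit (-3.52 ± 0.40), and its antagonists Fstl3 (-1.71 ± 0.22) and Fst, follistatin (2.55 ± 0.20), which lay on opposite sides. Of 7 Notch genes, Hes1 (-3.62), Notch4 (-3.56 ± 0.16) and Notch2 (-0.63) were lower besides Jag1, Notch2 losing its call in 4 of the alternatives run.

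Contractile genes of smooth muscle type had 3 of 13 lower and 1 higher (10.6% and 11.5% of all genes). Tagln, transgelin, was at 2.26, 1.5 and 2.28 with IL-1β, 3.98, 4.38 and 4.43 with TGFß1 and 2.66, 1.66 and 3.37 in controls. It differed by -2.35 ± 0.44 (limma q = 0.00215), with a TGFß1 rise that was lost without control 6. Acta2, smooth muscle α-actin, read 7.36, 7.45 and 7.63 against 7.74, 8.31 and 8.13, with controls at 7.52, 7.13 and 8.37. IL-1β arrays lay below TGFß1 arrays, but the controls overlapped both, and the difference of -0.66 (95% interval -1.32 to 0.00, limma q = 0.109) was not called. With the run as a block it was called (-0.70), and of 2 other Acta2 probes 1 was called lower (-0.70, limma q = 0.0112) and 1 was not (-0.94, limma q = 0.092). Mylk, myosin light chain kinase, was higher with IL-1β (2.13 ± 0.50) after a fall with TGFß1. The Cnn1 difference of -2.19 ± 0.70 was lost on leaving out any of 4 of the 6 arrays.

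Integrins had 6 of 12 lower with IL-1β and 1 higher (10.6% and 11.5% of all genes, as for every list of this paragraph). The lower ones were led by Itga11, a collagen receptor (-2.61 ± 0.36), Itgb3 (-2.45 ± 0.12), Itga7 (-2.25) and the fibronectin receptor chain Itga5 (-1.53). These 4 had all risen with TGFß1. Of 14 mesenchymal transcription factors 6 were lower, such as Foxs1 (-1.62), Runx1 (-1.48) and Fosb (-1.15), and 4 higher, such as Snai2 (1.07). Of the growth factors and IGF-binding proteins 8 of 23 were lower and 8 higher. Vegfa, the main angiogenic factor, was at 2.51, 1.38 and 1.56 with IL-1β, 5.33, 5.44 and 5.23 with TGFß1 and 1.80, 0.53 and 1.35 in controls, a difference of -3.69 ± 0.34 (limma q = 2.06e-05). Hbegf (-3.18 ± 0.32) and Pdgfa (-2.80) followed, while Fgf10 (2.77 ± 0.21) and the receptor Pdgfra (1.96) had fallen with TGFß1. Fgf7, a growth factor for epithelium, was at 1.71 with both sides called, 0.81 for IL-1β and -0.90 for TGFß1. Wnt genes were split 5 and 5 of 12, from Wnt9a (-3.43 ± 0.29) to Wnt16, at least 6.38-fold higher with IL-1β because it was at background with TGFß1.

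Interferon-stimulated and MHC class I genes were higher with IL-1β in 12 of 21 and lower in 0 (11.5% and 10.6% of all genes). Their median was 1.24. Against controls 0 were called for IL-1β (0.516% of all genes) and 8 were called lower for TGFß1 (12%). Gbp2, a guanylate-binding protein, read 1.68, 2.13 and 2.27 with IL-1β, -0.11, 0.36 and 0.13 with TGFß1 and 0.54, 0.83 and 1.51 in controls, a difference of 1.87 ± 0.28 (limma q = 0.000574). Its TGFß1 call (-0.81) was lost on leaving out any of 5 of 6 arrays, and its IL-1β value (1.07) was called with the run as a block. Ifit1 (1.98) and Ifit3 (1.86) had neither side called, except with the run as a block, where TGFß1 was lower for both (limma q = 0.0195 and 0.0254), and Ifit3 and Iigp1 lost the direct call in 8 and 7 of the alternatives run. Adipocyte-lineage genes had 6 of 10 higher and 1 lower (11.5% and 10.6% of all genes). Lpl (1.65), Fabp4 (1.59), Cebpa (1.48) and Lpin1 (1.32) were higher through falls with TGFß1. In this list 0 were called for IL-1β against controls (0.516% of all genes). Of 2 other Lpin1 probes 1 was called (1.11) and 1 was not (0.08, limma q = 0.945). Of the cell-cycle genes 2 of 28 were called (7.14%, against 22.1% of all genes). These were Myc (-1.23) and Ccnd1 (-0.64), which lost the call in 8 and 4 of the alternatives run. Proliferation markers such as Mki67 (0.23) and Top2a (-0.09) were not called.

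**Figure D3:**
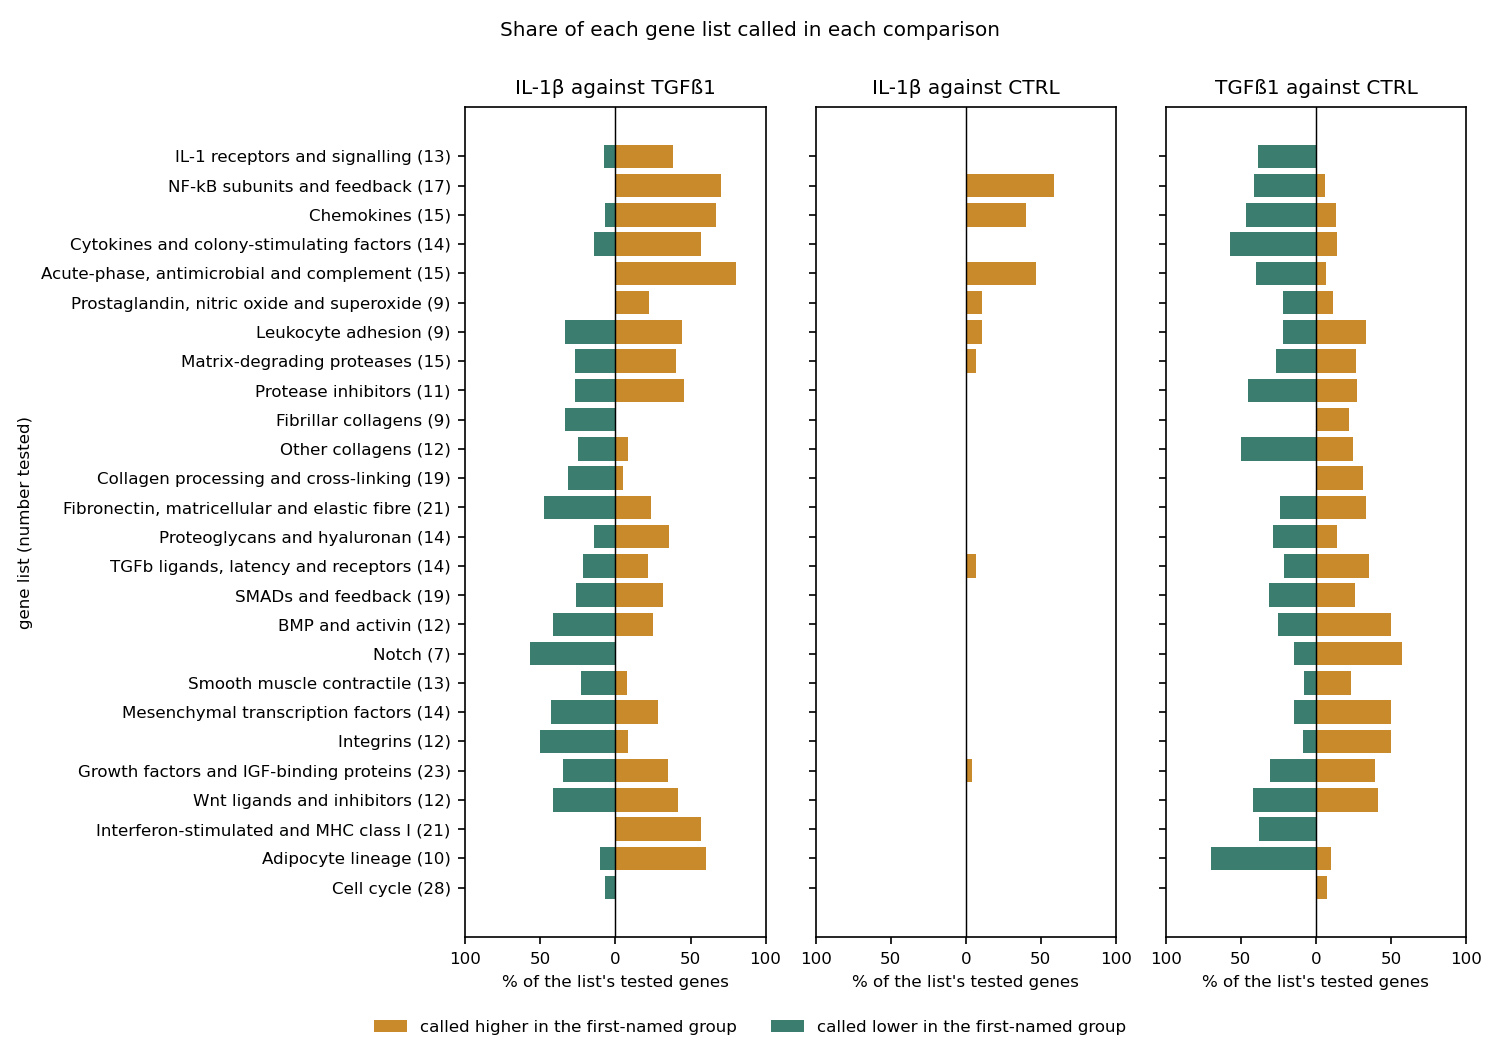
Share of each gene list's tested genes called higher (orange, right) or lower (green, left) in the first-named group, for IL-1β against TGFß1, IL-1β against controls and TGFß1 against controls, with the number tested after each list's name. IL-1β calls against controls stand mainly in the NF-κB (10 of 17), acute-phase (7 of 15) and chemokine (6 of 15) lists, against 0.516% of all genes. TGFß1 called 23.2% of all genes, so a call in each of the 26 lists shown does not set them apart. The cell-cycle list had 2 of 28.

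The study's 26 genes were chosen with TGFß1 and TNFα arrays of this series in view, so their direction on the TGFß1 side is not independent evidence. In the direct comparison 15 were lower with IL-1β, 8 higher and 3 not called, namely Acta2, Sod2 and Tnf. Against controls, IL-1β called 6 of them higher (Cxcl5, Cxcl1, C3, Ccl2, Icam1 and Sod2) and 0 lower, and TGFß1 called 14 higher and 8 lower. Sod2, the mitochondrial superoxide dismutase, read 2.40, 2.70 and 2.84 with IL-1β, 2.09, 2.25 and 2.15 with TGFß1 and 1.99, 1.78 and 1.90 in controls. It differed by 0.48 ± 0.13 between the cytokines, under 1.5-fold, and its IL-1β rise of 0.76 was lost on leaving out any of 5 of 6 arrays. Of the matrix and integrin genes of the set, Col7a1 at -0.52 (95% interval -0.80 to -0.23) and Itgb3 at -0.43 (-0.68 to -0.18) lay below controls with IL-1β, but neither was called.

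**Figure D4:**
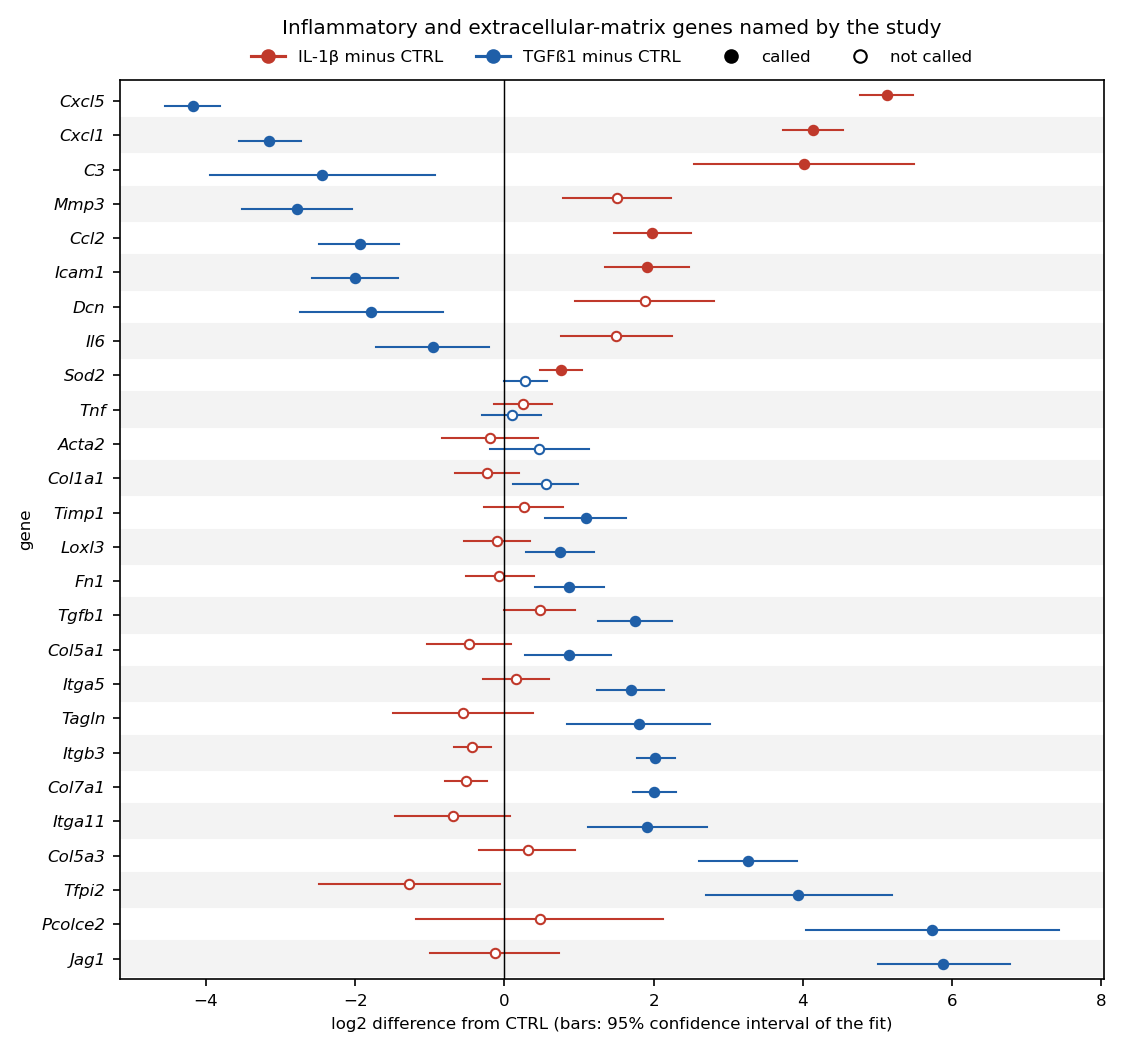
Fitted log2 difference from controls with IL-1β (red) and TGFß1 (blue) for the 26 genes of the study, ordered by the direct difference, with 95% confidence intervals and filled points where called. The 8 genes at the top have IL-1β to the right and TGFß1 to the left of 0, and the genes called lower have TGFß1 to the right, with IL-1β from -1.28 (Tfpi2) upward, such as Itga11 (-0.69) and Jag1 (-0.13).

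Over the 124 named genes, 61 were called higher and 60 lower with IL-1β. Of the 61, 41 were called against controls only for TGFß1, which fell, 10 for both with opposite signs, 4 only for IL-1β, which rose, 1 for both as rises and 5 for neither. Of the 60, TGFß1 rose in 58 and neither side was called in 2, Col1a1 and Ccnd1. Of all genes tested, 23.2% were called against controls for TGFß1 and 0.516% for IL-1β. The sides were not counted over all genes called between the cytokines, so these counts are not a result about the named genes. With the run as a further block 27 in place of 16 of the 124 were called for IL-1β and 115 in place of 110 for TGFß1. Leaving out each array in turn kept 11 of the 16 and 84 of the 110.

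Within a slide there is no test, and the named genes were chosen on these arrays, so only the size of the difference is described for each. It ranged from 0.56 to 10.07 on slide 1 and from 0.66 to 9.43 on slide 2 for the 61 genes, and from -7.23 to -0.62 and from -6.67 to -0.50 for the 60. Sizes differed between slides for several genes, such as Saa3 (10.07 and 7.72), Il6 (1.68 and 3.13) and Ifit3 (0.64 and 2.71). Of 51 other probes of the named genes, 46 were called in the same direction and 0 in the opposite one. The 4 not called were probes of Acta2, Col1a1, Lpin1 and P4ha3. Probes of a gene could differ in size, as for Slpi (0.71 against 5.4) and Tll1 (-1.84 against -5.53).

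**Figure D5:**
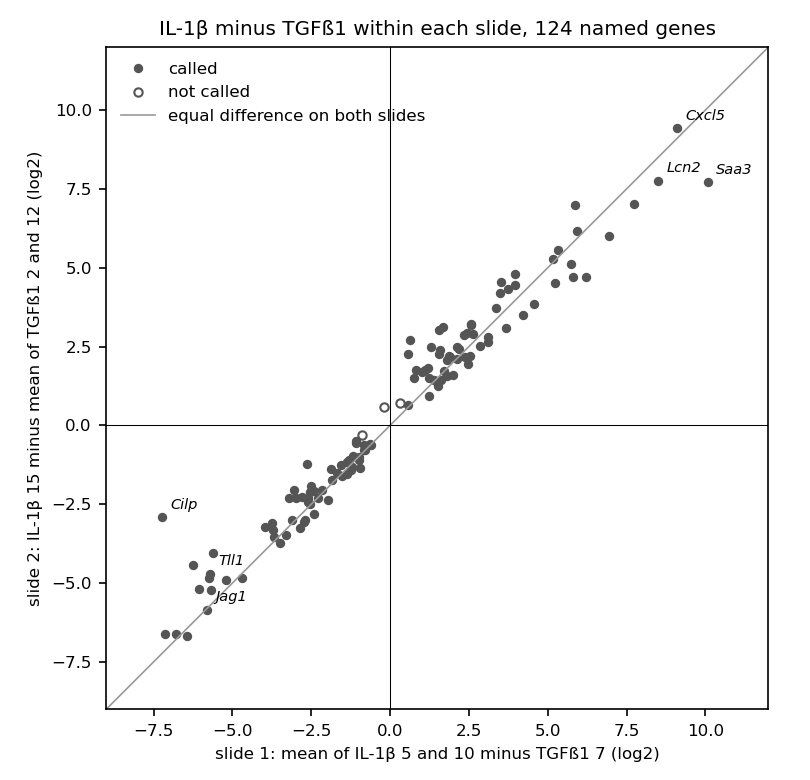
IL-1β minus TGFß1 (log2) computed within slide 1 (x axis, mean of arrays 5 and 10 minus array 7) and within slide 2 (y axis, array 15 minus the mean of arrays 2 and 12) for the 124 named genes. Jag1 (-5.80 and -5.85) and Cxcl5 (9.10 and 9.43) lie close to the line of equal difference, and among others Cilp (-7.23 and -2.92) and Saa3 (10.07 and 7.72) stand off it.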

How the data were processed

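Total RNA of MEFs was hybridised to 1-colour mouse arrays, 3 per group in 5 groups. The values are processed signal intensities deposited by the authors, made with Agilent Feature Extraction 10.7.3.1 (subtraction of background, detrending, low signals replaced by a surrogate) and not normalized between arrays. The deposited value table equals them (largest difference 0). From these, control spots were left out, spots of a probe averaged, log2 taken and the array's 75th percentile over probes (325.4 to 444.6 units) subtracted. limma 3.58.1 (R 4.3.3, statmod 1.5.0) was fitted to all 15 arrays with group and slide (9 residual degrees of freedom), over 28918 probes that all 3 arrays of IL-1β, TGFß1 or controls had well above background, with Benjamini-Hochberg q-values. A gene is its probe of highest mean signal.

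Named genes were the 12 largest called differences in each direction with no overlap of arrays, up to 4 called genes per list and the 26 genes of the study, 124 in all. Other list members were picked as examples after their values were seen. The members and lists were chosen with earlier results of these data known. The study describes its control, TGFß1 and TNFα arrays as 3 independent experiments and does not describe the IL-1β arrays. The labels do not say which arrays share an experiment, so p-values measure only the spread between arrays, whose number limits the precision. Deviations of arrays of the same run of label numbers correlated at 0.132 to 0.682 in all 30 pairs, and others at -0.572 to 0.262 in 60 pairs, so fits with the run are given beside the named genes whose calls they change. Each run held 1 array of every group, and the labels do not say what a run is. The main fit was also run on simulated data with a slide shift and independent noise per array. These held no correlation within a run, so they do not check the tests under it. Alternatives covered the model, the scaling, the background correction, the filter, the threshold and each array, and 1 further alternative, the percentile over all spots, was chosen after seeing the data. Some members of the lists are not reported here.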

Additional observations from a re-analysis of the deposited data

How the results depend on the processing

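Counts here are of probes, with 5773 called between IL-1β and TGFß1 (3089 higher, 2684 lower), 108 for IL-1β against controls (100 and 8) and 5913 for TGFß1 against controls (2879 and 3034). Of the 121 named genes called, 104 were called in every alternative that could be run on them and none reversed there, the filter on both groups covering 95 of the 124. IL-1β against controls was the least stable. It gave 2 lower probes without the slide, 61 (59 higher, 2 lower) from 9 arrays and 13 (13 and 0) from 6 arrays. With the run of label numbers and the slide as blocks it gave 328 (253 and 75). With no filter on dim probes it gave 68 (59 higher), and at a fold-change of at least 2 it gave 66 (64 and 2). All 108 were among the 328. With the run, 5735 of the 5773 and 5870 of the 5913 remained called. At an unadjusted p under 0.05 the 3 comparisons had 13458, 1920 and 13546 probes. Between IL-1β and TGFß1, lower probes numbered 4447 after centring on the median and 1784 with the percentile over bright probes, where higher probes made up 34.3% and 69.1% against 53.5%. For TGFß1 against controls that share was 35.5% against 48.7% with bright probes. Normexp correction of the median signal (the mean signal was not used here) gave 3554 (1583 higher) and, for TGFß1 against controls, 3787 (1701 lower). With no fold criterion the counts were 10296 (5733 lower) and 10529 (5906 higher, 4623 lower), and at a fold-change of 2 they were 2615 (1642 and 973) and 2734 (1103 and 1631). The cause was not tested, except that the thresholds act by construction. Leaving out 1 array gave 4287 to 6175 between the cytokines (2347 to 3197 higher, 1940 to 2978 lower), 51 to 96 for IL-1β against controls (47 to 92 higher, 0 to 6 lower) and 4011 to 6507 for TGFß1 against controls (1868 to 3207 higher, 2143 to 3300 lower). The 51 came without IL-1β 15, and 63 without control 1, 63 without control 11 and 64 without IL-1β 5. The 1868 came without control 6. In the 250 bases before the start alone, CAGACA stood in 14.7% and 15.1% of promoters higher and lower with IL-1β. Probes at background give bounds only.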

Other observations

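Outside the lists, and chosen after their values were seen, several called genes with a known function stood apart. Fas, the death receptor, differed by 3.08 ± 0.14 (limma q = 1.39e-07), with 1.69 for IL-1β and -1.40 for TGFß1 against controls, both called. Sema7a, a membrane-bound semaphorin, was lower with IL-1β at -4.65 ± 0.62 (limma q = 0.000275), with TGFß1 at 4.88 above controls and IL-1β at 0.22, not called. Sphk1, which makes sphingosine 1-phosphate, and Tnfrsf11b, the decoy receptor osteoprotegerin, were also lower with IL-1β, at -4.29 ± 0.19 and -4.79 ± 0.77, with TGFß1 at 4.46 and 5.31 above controls and IL-1β not called.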
